A study of Homo sapiens with 24 samples.

Results

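RNA-seq counts of U937 cells carrying a short hairpin against G9a were compared with those of U937 cells carrying a scrambled hairpin. U937 is a human myelomonocytic line grown in suspension. The libraries analysed were all those labelled with G9a hairpin 2 (3 libraries), G9a hairpin 3 (3 libraries) or the scrambled hairpin (3 libraries), which made 9 of the 24 in the series. The 2 G9a hairpins had equal weight in their mean, and a gene was said to rise or fall only if the mean of the hairpins and each hairpin alone passed an adjusted p of 0.05 in the same direction against the scrambled hairpin. The size of each rise or fall is given on the log2 scale, and numbers in brackets after a gene name are log2 changes of the mean. By the labels, hairpins against G9a or SUV39H1 were delivered by lentivirus and the cells were kept in puromycin for 3 days. The labels give no vector or selection for the scrambled cells, so a difference in selection and the loss of G9a cannot be told apart in this comparison. They also do not say whether the 3 libraries of a group came from separate cultures, so p-values measure only the spread between these libraries, which may be technical. The series title poses the question: it concerns dimethylation of lysine 9 on histone H3 (H3K9) and interferon signalling.

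EHMT2 encodes G9a, which pairs with GLP, encoded by EHMT1, and adds mono- and dimethyl groups to H3K9 at silent genes in euchromatin. SUV39H1 and SUV39H2 mainly make the trimethyl form in constitutive heterochromatin, and SETDB1 makes it at many retroviral repeats. In myeloid leukaemia cells, H3K9 methylation has been studied as a barrier to differentiation and to sensing of RNA from repeats, which sets off type I interferon and its target genes.

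The 9 libraries held 34247076 to 52218785 gene counts each, and 20147 genes passed the filter on low counts. The other libraries of the series entered the same fit and are used here where stated: SUV39H1 hairpins 2 and 4, UNC0638 (a small molecule that blocks catalysis by G9a and GLP, harvested after 3 days) at 4 µM, and DMSO, for which the labels give no time. All 10 markers of U937 cells were measured in every G9a and scrambled library, with a summed level of 4416 to 4787 CPM (counts scaled to a common library size) with the G9a hairpins and 3313 to 3545 CPM with the scrambled hairpin. Markers of other cells were scarce: 5 of 17 lymphoid, 4 of 18 erythroid and megakaryocyte, and 5 of 16 epithelial and fibroblast markers passed the filter. Strand was not kept by the library kit, which leaves reads of overlapping or antisense genes impossible to assign to one of them. Such overlaps are named below for some genes only.

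EHMT2, the targeted gene, fell to 51.1% of its level in the scrambled cells (chromosome 6, 31847536 to 31865464, minus strand, hg19). It measured 76.8, 71.3 and 73.0 CPM with G9a hairpin 2 and 70.6, 77.4 and 71.6 CPM with G9a hairpin 3, against 139, 139 and 154 CPM with the scrambled hairpin. All 6 G9a libraries lay below all 3 scrambled libraries, and the G9a hairpins overlapped each other. The log2 change was -0.97 ± 0.05 (SE; edgeR adjusted p = 9.22e-14), and it was -0.96 with hairpin 2 and -0.97 with hairpin 3. EHMT2 stood at 132 ± 9.03 CPM at 4 µM UNC0638 and 146 ± 17.8 CPM in DMSO (SD, n = 3 each).

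**Figure D1:**
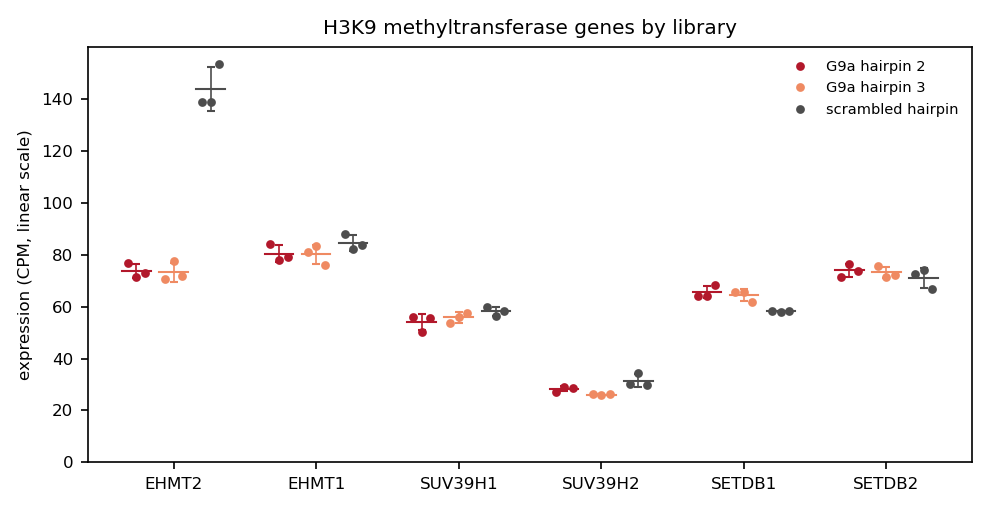
Levels of 6 H3K9 methyltransferase genes in CPM (linear axis) with G9a hairpins 2 and 3 and the scrambled hairpin; points are libraries and bars are means with SD. EHMT2 averaged 73.4 ± 2.94 CPM with the G9a hairpins and 144 ± 8.52 CPM with the scrambled hairpin, while EHMT1 and SUV39H1 overlapped between the groups.

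The other H3K9 methyltransferase genes moved little. EHMT1 averaged 80.2 ± 3.14 CPM with the G9a hairpins and 84.5 ± 2.94 CPM with the scrambled hairpin (SD, n = 6 and 3), a log2 difference of -0.07 ± 0.04 (SE; edgeR adjusted p = 0.114) that did not pass the test. SUV39H1 averaged 54.9 ± 2.55 CPM with the G9a hairpins and 58.2 ± 1.67 CPM with the scrambled hairpin and did not pass either (edgeR adjusted p = 0.195). SUV39H2 passed in the mean, at -0.21 ± 0.05 (SE; edgeR adjusted p = 0.00199), but not with hairpin 2 alone, and the call in the mean was lost without scrambled replicate 2, where the difference was -0.14 (edgeR adjusted p = 0.0589). SUV39H2 may also share reads with the overlapping DCLRE1C. SETDB1 rose by 0.16 on the log2 scale, with 64.1, 64.2 and 68.3 CPM with G9a hairpin 2 and 65.5, 65.8 and 61.6 CPM with G9a hairpin 3, against 58.4, 58.0 and 58.3 CPM with the scrambled hairpin. Its groups did not overlap, but the test with hairpin 3 alone was lost without G9a hairpin 3 replicate 1 (edgeR adjusted p = 0.0719), G9a hairpin 3 replicate 2 (0.0780) or scrambled replicate 2 (0.0549), and the gene may share reads with the neighbouring CERS2. SETDB2 had a log2 difference of 0.05 and did not pass (edgeR adjusted p = 0.461).

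Genes that work with or against these enzymes moved in both directions. Among 11 H3K9 demethylase genes, 3 rose (27.3%) and 2 fell (18.2%), not far from the 19.1% and 19.4% of all genes. KDM3A, a demethylase of mono- and dimethyl H3K9, rose by 0.46 and averaged 86.9 ± 3.08 CPM with the G9a hairpins and 63.1 ± 2.73 CPM with the scrambled hairpin (SD, n = 6 and 3), but it stood at 127 ± 5.42 CPM in DMSO (SD, n = 3). KDM4A rose by 0.32 and PHF8 by 0.17, while JMJD1C fell by 0.30. Against DMSO 1 of the 11 was higher and 5 lower, and 0 of the 3 that rose were also higher than in DMSO; KDM4A stood at 91.1 ± 3.12 CPM and PHF8 at 90.3 ± 4.07 CPM there (SD, n = 3). The count of falls was 1 without any 1 of 4 libraries (G9a hairpin 2 replicate 2, G9a hairpin 3 replicates 2 and 3, scrambled replicate 1). Of 23 genes for G9a partners and heterochromatin proteins, 9 rose (39.1%) and 4 fell (17.4%). WIZ, a zinc finger protein of the G9a complex, rose by 0.29, and CBX5, which encodes heterochromatin protein 1 alpha, rose by 0.35. DNMT3B, a de novo DNA methyltransferase, fell by 0.60 on the log2 scale, with 20.9, 21.7 and 21.2 CPM with G9a hairpin 2 and 20.8, 20.6 and 21.1 CPM with G9a hairpin 3, against 32.5, 30.8 and 32.5 CPM with the scrambled hairpin. Every G9a library lay below every scrambled library.

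Across all genes, 10058 of 20147 passed the test in the mean of the G9a hairpins (49.9%), 5038 higher and 5020 lower. Hairpin 2 alone gave 8946 (44.4%) and hairpin 3 alone 9004 (44.7%). By the rule that asks for both hairpins, 3852 genes rose (19.1%) and 3906 fell (19.4%), and no gene was called in opposite directions by the hairpins. Most of these changes were small: the median absolute log2 change of the called genes was 0.34, and 286 rose and 221 fell by at least 2-fold. The median log2 change of all 20147 genes was 0.01. When the test asked for a change beyond 1.2-fold, 1193 genes rose and 1034 fell with both hairpins. With DESeq2 in place of edgeR, 4300 genes were higher and 5131 lower in the mean.

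The hairpins gave nearly the same profile. Of 20147 genes, 2 differed between hairpin 3 and hairpin 2 (0.00993%), with 771 at an unadjusted p under 0.05. EGR1 was higher with hairpin 3 and HSPA6 was lower. For the genes called by both hairpins, the median absolute difference between the hairpins was 0.04 on the log2 scale and the 90th percentile was 0.13. For comparison, 8645 genes differed between SUV39H1 hairpins 4 and 2. A chi-square statistic of counts per degree of freedom between a hairpin 2 and a hairpin 3 library ran from 2.12 to 9.38, close to that between 2 libraries of hairpin 3 (3.10 to 9.75) or of the scrambled hairpin (2.25 to 9.23), whereas between a G9a and a scrambled library it ran from 53.7 to 77.5. The labels treat the 2 hairpins as separate constructs, and whether the libraries came from separate transductions is not given in the sources used here.

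**Figure D2:**
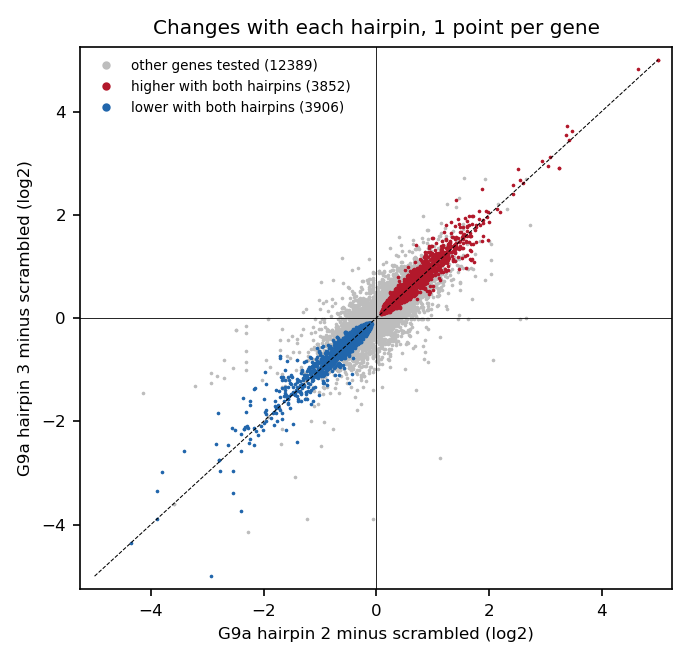
Log2 change against the scrambled hairpin with G9a hairpin 3 and with G9a hairpin 2, 1 point per gene, with values limited to 5 in either direction and a dashed line where both are equal. The 3852 genes that rose and the 3906 that fell lie along the line, and none lies in an opposite corner.

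The scrambled cells also differed from the DMSO cells, in 6321 genes, so the level in DMSO is given beside results where it changes the reading. Against DMSO, the mean of the G9a hairpins was higher for 4533 genes (22.5%) and lower for 4846 (24.1%). Of the genes above, 2483 were higher with the G9a hairpins than in both controls and 2566 were lower than in both, while 198 were higher than with the scrambled hairpin but lower than in DMSO and 135 the reverse. Both comparisons use the same G9a libraries. The shares of all genes against DMSO, 22.5% higher and 24.1% lower, are those to set beside the counts of list members against DMSO below.

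Among genes of at least 2 CPM in the higher group and with no overlap of libraries, the rise of KCNMB1 was the largest, to 798% of its scrambled level. KCNMB1, which encodes a regulatory subunit of the calcium-activated BK potassium channel, measured 45.9, 44.7 and 47.4 CPM with G9a hairpin 2 and 46.0, 49.3 and 53.4 CPM with G9a hairpin 3, against 5.85, 6.09 and 6.01 CPM with the scrambled hairpin. The 6 G9a libraries were all far above the scrambled ones, and the log2 change was 2.99 ± 0.07 (SE; edgeR adjusted p = 2.15e-22). CHI3L1, a secreted chitinase-like glycoprotein made by macrophages and neutrophils, lies on chromosome 1, 203148059 to 203155877, minus strand (hg19). It measured 1651, 1667 and 1677 CPM with G9a hairpin 2 and 1763, 1858 and 1898 CPM with G9a hairpin 3, against 305, 303 and 319.9 CPM with the scrambled hairpin. Hairpin 3 lay slightly above hairpin 2, both were above every scrambled library, and the log2 change was 2.50 ± 0.04 (SE; edgeR adjusted p = 8.50e-25). CHI3L1 averaged 1529 ± 33.4 CPM with SUV39H1 hairpin 2 and 979 ± 38.7 CPM with SUV39H1 hairpin 4, and 244 ± 10.0 CPM at 4 µM UNC0638 against 246 ± 13.2 CPM in DMSO (SD, n = 3 each).

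The other large rises above that level were in genes of varied roles. FGD2, a guanine nucleotide exchange factor of antigen-presenting cells, rose by 2.70 and averaged 4.03 against 0.609 CPM with the G9a and the scrambled hairpins. MYOF, which encodes the membrane repair protein myoferlin, rose by 2.61, and GVINP1, a pseudogene of the interferon-inducible very large GTPases, by 2.61. GVINP1 measured 35.4, 38.0 and 38.4 CPM with G9a hairpin 2 and 39.8, 38.5 and 34.8 CPM with G9a hairpin 3, against 5.91, 6.40 and 6.04 CPM with the scrambled hairpin. No libraries of the groups overlapped. HP, the haemoglobin scavenger haptoglobin, rose by 2.01, with reads that may be shared with HPR and TXNL4B. TFEC, a macrophage transcription factor of the MiT family, rose by 1.76 and GPR183, an oxysterol receptor of immune cells, by 1.60. GPR183 overlaps UBAC2. NPAS4 (1.96), TGFB1I1 (1.79), PALLD (1.59) and SESN3 (1.55) also rose. PALLD, an actin-binding protein, overlaps DDX60L and CBR4.

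For PLIN2, HMOX1 and TULP3 the level in DMSO cells was far above that in the scrambled cells. PLIN2, a coat protein of lipid droplets, measured 214, 219 and 227 CPM with G9a hairpin 2 and 232, 243 and 264 CPM with G9a hairpin 3, against 71.1, 72.0 and 72.1 CPM with the scrambled hairpin. That was a log2 change of 1.70 ± 0.04 (SE; edgeR adjusted p = 1.03e-21) without overlap, but DMSO cells averaged 191 ± 4.06 CPM (SD, n = 3). HMOX1, which encodes haem oxygenase 1, averaged 27.2 ± 1.77 CPM with the G9a hairpins and 8.81 ± 0.212 CPM with the scrambled hairpin (SD, n = 6 and 3), a rise of 1.63 on the log2 scale. In DMSO cells it stood at 105 ± 9.95 CPM (SD, n = 3), above all G9a libraries. TULP3, which overlaps RHNO1, rose by 1.54 and averaged 23.2 against 7.94 CPM with the G9a and the scrambled hairpins, and 23.6 ± 1.42 CPM in DMSO. HMOX1 and TULP3 were the exceptions, as the other 13 of the 15 genes were above every DMSO library in every G9a library.

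All of the 15 largest falls lay below every DMSO library in every G9a library. That they lay below every scrambled library was a condition of the choice. The share of all genes beyond every DMSO library was not counted, for rises or falls. Neither the 15 falls nor the 13 rises can therefore be weighed against it. DPEP1, a membrane dipeptidase, measured 21.5, 18.3 and 18.3 CPM with G9a hairpin 2 and 21.6, 22.7 and 21.0 CPM with G9a hairpin 3, against 119, 116 and 125 CPM with the scrambled hairpin. The groups were far apart, and the log2 change was -2.55 ± 0.05 (SE; edgeR adjusted p = 1.01e-22). RAD23B, a ubiquitin receptor of nucleotide excision repair, had the smallest p among them and measured 75.6, 76.2 and 75.8 CPM with G9a hairpin 2 and 77.3, 74.1 and 71.2 CPM with G9a hairpin 3, against 297, 304 and 284 CPM with the scrambled hairpin. It fell by 1.98 on the log2 scale (edgeR adjusted p = 8.24e-26), with no overlap of the groups. ADAM9, a membrane metalloproteinase that sheds surface proteins, averaged 69.2 ± 1.27 CPM with the G9a hairpins and 246 ± 7.80 CPM with the scrambled hairpin (SD, n = 6 and 3) and 429 ± 9.43 CPM with SUV39H1 hairpin 2 and 388 ± 3.64 CPM with SUV39H1 hairpin 4 (SD, n = 3 each). Its level was thus below the scrambled one with the G9a hairpins and above it with the SUV39H1 hairpins.

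CHAT, choline acetyltransferase, fell by 2.33 and SEMA4C, a transmembrane semaphorin, by 2.15. CHAT measured 9.81, 8.78 and 8.20 CPM with G9a hairpin 2 and 10.7, 9.39 and 9.42 CPM with G9a hairpin 3, against 48.1, 45.5 and 47.3 CPM with the scrambled hairpin. SEMA4C averaged 12.1 ± 0.488 CPM with the G9a hairpins and 53.9 ± 2.23 CPM with the scrambled hairpin (SD, n = 6 and 3). Both were separated without overlap. CD79A, a subunit of the B-cell receptor, fell by 2.24 and averaged 3.82 against 18.1 CPM with the G9a and the scrambled hairpins. TRIM71, a ubiquitin ligase and RNA-binding protein of stem cells, fell by 2.29. ART3, which overlaps CXCL10 and CXCL11, fell by 2.34. EGR1, an immediate early zinc finger factor, measured 9.11, 8.65 and 9.18 CPM with G9a hairpin 2 and 13.0, 14.2 and 14.9 CPM with G9a hairpin 3, against 36.5, 42.6 and 48.4 CPM with the scrambled hairpin, a change of -1.92 ± 0.07 (SE; edgeR adjusted p = 1.73e-17). The 3 values with hairpin 2 were below the 3 with hairpin 3, and all 6 were below the scrambled ones. IL22RA2 (-2.22), FRMPD2 (-2.20), TMEM158 (-2.01), PDYN (-1.90), HS3ST2 (-1.90) and NDFIP2 (-1.88) completed the group. IL22RA2, a soluble decoy receptor for interleukin 22, went the other way with the inhibitor, with 29.2 ± 1.85 CPM at 4 µM UNC0638 and 5.12 ± 0.619 CPM in DMSO (SD, n = 3 each).

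**Figure D3:**
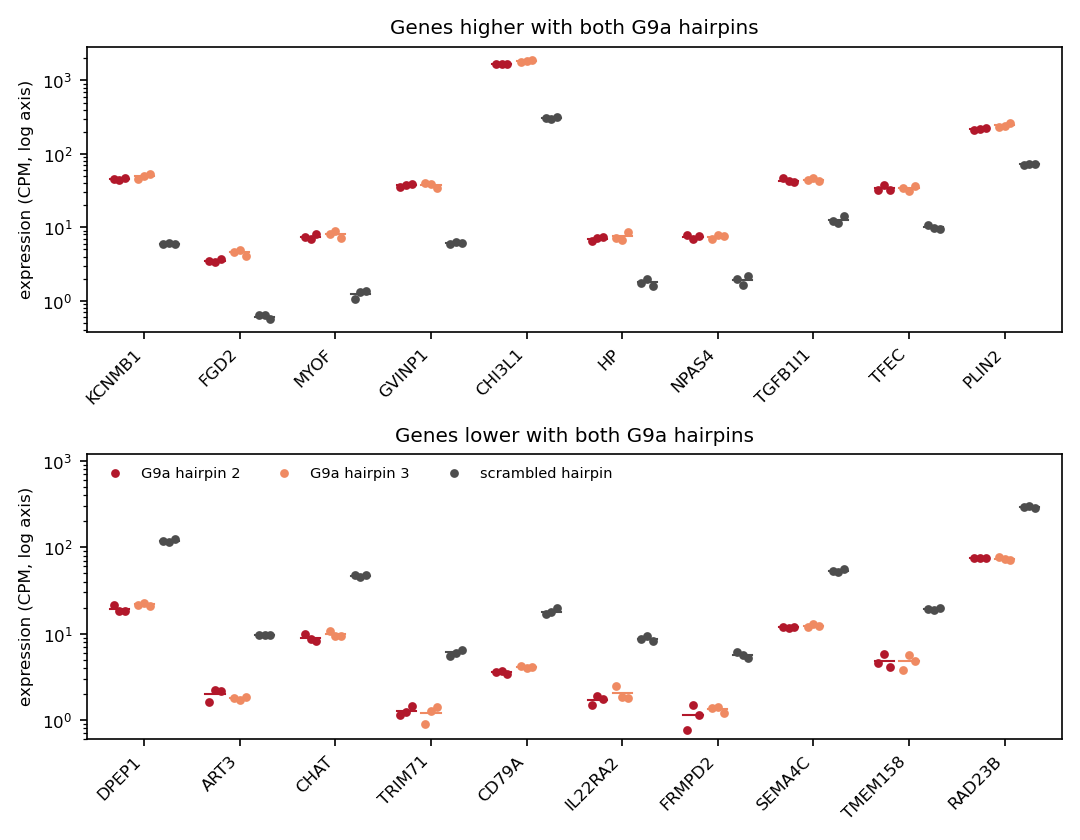
Levels in CPM (log axis) of the first 10 of the 15 genes with the largest rise and of the 15 with the largest fall, in the G9a hairpin and the scrambled hairpin libraries; points are libraries and lines are means. KCNMB1, at 47.8 against 5.98 CPM, and DPEP1, at 20.6 against 119.8 CPM with the G9a and the scrambled hairpins, lead the panels.

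Against the scrambled hairpin, interferon-stimulated genes did not move as a group. Of 91 listed, 88 were tested, of which 23 rose (26.1%) and 27 fell (30.7%), beside 19.1% and 19.4% of all genes. Their median log2 change was 0.01, equal to that of all genes, and its sign turned with the scaling: it was -0.01 with RLE scaling and -0.02 with DESeq2. Their summed level was 3453 to 3505 CPM in the G9a libraries and 3512 to 3562 CPM in the scrambled libraries. In bulk RNA, a gene expressed in fewer cells and a gene with less RNA per cell cannot be told apart. Against DMSO, 10 of the 88 were higher and 47 lower, with a median of -0.28, beside 22.5% and 24.1% of all genes. Of the 23 rises, 8 were also higher than in DMSO and 4 were lower. Of the 27 falls, 23 were also lower than in DMSO.

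Among those that rose, UBA7, the activating enzyme for ISG15 conjugation, measured 29.4, 29.3 and 30.8 CPM with G9a hairpin 2 and 32.0, 32.3 and 29.8 CPM with G9a hairpin 3, against 13.3, 13.5 and 14.97 CPM with the scrambled hairpin. No libraries overlapped, and the log2 change was 1.13 ± 0.06 (SE; edgeR adjusted p = 7.55e-14). IFI35 rose by 0.86, RSAD2, which encodes the antiviral enzyme viperin, by 0.70, and IRF1, a transcription factor of interferon responses, by 0.57. STAT2, a subunit of the factor that carries type I interferon signals, rose by 0.43, and IRF9, another of its subunits, fell by 0.53. TRIM25, a ubiquitin ligase that acts on RIG-I, measured 73.8, 69.8 and 75.1 CPM with G9a hairpin 2 and 71.7, 70.1 and 69.4 CPM with G9a hairpin 3, against 114, 113 and 119 CPM with the scrambled hairpin. It fell by 0.69 without overlap (edgeR adjusted p = 3.98e-15), and TRIM22, an antiviral TRIM protein, fell by 1.18 and averaged 4.18 against 9.42 CPM with the G9a and the scrambled hairpins. The annotation of TRIM22 overlaps TRIM5, and the 2 may share reads. OAS2, an oligoadenylate synthetase, fell by 1.25 at a low level, with averages of 0.123 against 0.287 CPM with the G9a and the scrambled hairpins, and its test with hairpin 2 alone was lost without G9a hairpin 2 replicate 1 (edgeR adjusted p = 0.121), G9a hairpin 2 replicate 3 (0.121) or scrambled replicate 2 (0.223). CXCL10, an interferon-induced chemokine gene that overlaps ART3, fell by 1.09. IFNB1, the interferon beta gene, was near the limit of detection, with 0.120, 0.0425 and 0.0723 CPM with G9a hairpin 2 and 0.0953, 0.0251 and 0.0676 CPM with G9a hairpin 3, against 0.151, 0.0985 and 0.0491 CPM with the scrambled hairpin, and did not pass (edgeR adjusted p = 0.510).

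Promoter windows of 4 of these genes are shown because they carry the letters of an interferon-stimulated response element, 2 from genes that rose and 2 from genes that fell. They come from RefSeq on GRCh38.p14, whereas the counts are on hg19, and each runs 5′ to 3′ in the direction of its gene from 250 bases before to 50 bases after the annotated start. Capitals mark a match on either strand to GAAA, any 2 bases and GAAA; on the strand printed, some matches appear in their reverse complement.
PARP14 (chr3:122680589-122680888, plus strand): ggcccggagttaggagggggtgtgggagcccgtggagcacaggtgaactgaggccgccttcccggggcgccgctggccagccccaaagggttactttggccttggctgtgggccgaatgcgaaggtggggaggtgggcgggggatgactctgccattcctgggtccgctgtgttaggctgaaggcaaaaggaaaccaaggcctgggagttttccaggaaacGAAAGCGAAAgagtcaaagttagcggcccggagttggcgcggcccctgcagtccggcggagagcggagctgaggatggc
HERC5 (chr4:88456869-88457168, plus strand): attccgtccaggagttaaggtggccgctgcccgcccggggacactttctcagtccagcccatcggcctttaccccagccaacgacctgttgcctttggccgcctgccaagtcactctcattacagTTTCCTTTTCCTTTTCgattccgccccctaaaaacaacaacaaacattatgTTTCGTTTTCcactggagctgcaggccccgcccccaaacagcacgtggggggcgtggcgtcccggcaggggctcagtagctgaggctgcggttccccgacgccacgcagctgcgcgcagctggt
EIF2AK2 (chr2:37156931-37157230, minus strand): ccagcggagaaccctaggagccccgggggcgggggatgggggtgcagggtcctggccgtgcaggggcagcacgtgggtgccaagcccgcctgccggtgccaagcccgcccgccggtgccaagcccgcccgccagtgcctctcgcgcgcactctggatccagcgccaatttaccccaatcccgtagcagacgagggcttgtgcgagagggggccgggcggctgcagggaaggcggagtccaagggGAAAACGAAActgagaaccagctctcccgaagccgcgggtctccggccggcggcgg
IFIT1 (chr10:89392373-89392672, plus strand): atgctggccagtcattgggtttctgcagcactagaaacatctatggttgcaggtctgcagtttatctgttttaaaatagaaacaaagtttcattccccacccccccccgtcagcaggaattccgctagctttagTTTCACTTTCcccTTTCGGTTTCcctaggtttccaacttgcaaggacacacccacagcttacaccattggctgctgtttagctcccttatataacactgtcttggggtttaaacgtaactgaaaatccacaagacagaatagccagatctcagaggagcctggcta

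The match lies 29 bases before the start in PARP14, a mono-ADP-ribosyltransferase. In HERC5, the ligase that attaches ISG15, matches lie 125, 119 and 74 bases before it, the first 2 sharing bases. In EIF2AK2, which encodes the RNA-activated kinase PKR, the match lies 6 bases before the start, and in IFIT1, a protein that binds uncapped viral RNA, matches lie 116 and 103 bases before it. PARP14 rose by 0.23 and averaged 45.5 ± 1.22 CPM with the G9a hairpins and 38.8 ± 1.64 CPM with the scrambled hairpin. HERC5 rose by 0.32 and averaged 21.0 ± 0.905 CPM with the G9a hairpins and 16.8 ± 0.660 CPM with the scrambled hairpin. EIF2AK2 fell by 0.36 and averaged 93.0 ± 3.32 CPM with the G9a hairpins and 119 ± 2.17 CPM with the scrambled hairpin. IFIT1 fell by 0.55 and averaged 10.8 ± 0.749 CPM with the G9a hairpins and 15.8 ± 0.827 CPM with the scrambled hairpin (SD, n = 6 and 3 for each). The motif was in 9 of 18 matched promoters of the interferon-stimulated genes that rose, 8 of 20 of those that fell and 36 of 66 of those tested (54.5%), against 3.03% of the 10313 promoters matched to tested genes and 3.65% of all 27305 promoters. Matching letters are a description of these windows and do not show binding.

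The same genes responded differently to the other treatments. The difference between the G9a and the SUV39H1 hairpins was tested directly: 6624 genes were higher with the G9a hairpins (32.9%) and 6573 lower (32.6%), and of the interferon-stimulated genes 2 were higher and 82 lower, with a median difference of -1.47. The median of the list against the scrambled hairpin, which both knockdowns share, was 0.01 with the G9a hairpins and 1.52 with the SUV39H1 hairpins. Between the G9a response and the response to 4 µM UNC0638, each against its own control, 4492 genes were higher (22.3%) and 4528 lower (22.5%). Of the interferon-stimulated genes 3 were higher and 61 lower, with medians of 0.01 for the G9a hairpins and 0.82 for the inhibitor. IFI6, an interferon-induced mitochondrial protein, averaged 27.5 ± 2.16 CPM with the G9a hairpins and 36.6 ± 2.06 CPM with the scrambled hairpin (SD, n = 6 and 3), 1234 ± 57.5 CPM with SUV39H1 hairpin 2 and 376 ± 14.7 CPM with SUV39H1 hairpin 4, 417 ± 27.6 CPM at 4 µM UNC0638 and 97.4 ± 7.80 CPM in DMSO (SD, n = 3 each). It fell by 0.41 with the G9a hairpins, and the G9a minus SUV39H1 difference was -4.63 ± 0.06 (SE; edgeR adjusted p = 6.90e-29).

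Genes for interferons, nucleic acid sensors, and the receptors and JAK kinases that relay interferon rose more often than they fell. Of 27 tested, 8 rose (29.6%) and 1 fell (3.70%), beside 19.1% and 19.4% of all genes, with a median of 0.06. IKBKE, a kinase that activates IRF3, measured 72.0, 63.4 and 66.3 CPM with G9a hairpin 2 and 70.1, 74.4 and 70.6 CPM with G9a hairpin 3, against 51.4, 50.6 and 53.8 CPM with the scrambled hairpin. It rose by 0.42 without overlap (edgeR adjusted p = 5.69e-09), the kinase JAK1 by 0.31 and IL10RB, a receptor chain shared by interleukin 10 and interferon lambda, by 0.18. The one that fell was SOCS1, an inhibitor of JAK signalling, by 0.50; that fall was lost in 9 of 14 alternatives, among them DESeq2 and 7 of the 9 that leave out a library. Against DMSO, 7 of the 27 were higher and 12 lower, with a median of -0.08, and of the rises named IL10RB was lower than in DMSO, where it stood at 65.8 ± 0.767 CPM (SD, n = 3).

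Called members of MHC class I mostly rose and those of class II mostly fell. Of 23 class I presentation genes, 10 rose (43.5%) and 2 fell (8.70%), beside 19.1% and 19.4% of all genes, with a median of 0.18. ERAP1, an aminopeptidase that trims peptides in the endoplasmic reticulum, averaged 58.1 ± 1.26 CPM with the G9a hairpins and 40.6 ± 2.05 CPM with the scrambled hairpin (SD, n = 6 and 3) and rose by 0.52. TAPBPL and TAPBP, which edit the peptides loaded on class I molecules, rose by 0.70 and 0.32, and PSMB8, an immunoproteasome subunit, fell by 0.39. TAPBPL may share reads with the overlapping VAMP1 and CD27, and PSMB8 with PSMB9. Against DMSO the class I direction did not hold: 7 of the 23 genes were higher and 9 lower, with a median of -0.02, and 7 of the 10 rises were also higher than in DMSO. Of 12 class II genes, 7 fell (58.3%) and 1 rose (8.33%), with a median of -0.26. HLA-DRA, the alpha chain of HLA-DR, measured 20.5, 21.3 and 23.1 CPM with G9a hairpin 2 and 22.4, 23.9 and 28.3 CPM with G9a hairpin 3, against 42.9, 43.3 and 40.8 CPM with the scrambled hairpin. It fell by 0.87 (edgeR adjusted p = 7.38e-13) without overlap and stood at 66.2 ± 2.56 CPM at 4 µM UNC0638 and 29.6 ± 0.736 CPM in DMSO. HLA-DPA1 fell by 1.86 and HLA-DPB1 by 1.55, both under 2 CPM in each of the 9 libraries, and HLA-DRB5 fell by 0.57, with a count made uncertain by its near-identical paralogs. CIITA, the master regulator of class II genes, fell by 0.22, a call lost with hairpin 3 alone without G9a hairpin 3 replicate 3 (edgeR adjusted p = 0.0747). Against DMSO 5 of the 12 were lower and 0 higher.

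Inflammatory genes fell more often than they rose, 10 (32.3%) against 2 (6.45%) of 31, with a median of -0.13. Of all genes 19.4% fell and 19.1% rose. CCL2, a chemokine for monocytes, measured 29.6, 32.0 and 30.7 CPM with G9a hairpin 2 and 29.7, 29.9 and 34.3 CPM with G9a hairpin 3, against 93.3, 99.1 and 94.0 CPM with the scrambled hairpin. It fell by 1.62 without overlap (edgeR adjusted p = 1.61e-21). CCL3 fell by 0.88, TNF by 0.85 and CCL5 by 0.51, while TNFAIP3, a feedback inhibitor of NF-kB, rose by 0.37. Against DMSO 18 of the 31 were lower and 3 higher. Of the 10 falls 7 were also lower than in DMSO and 1 was higher. Of the 2 rises 0 were also higher than in DMSO and 1 was lower.

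Markers of monocytes and macrophages rose more often than they fell, 14 (41.2%) against 6 (17.6%) of 34 tested, with a median of 0.43. Of all genes 19.1% rose and 19.4% fell. The summed level of the markers was 2577 to 2774 CPM in G9a libraries and 2049 to 2116 CPM in scrambled libraries. ITGAL, an integrin chain of leukocytes, measured 301, 279 and 309.7 CPM with G9a hairpin 2 and 317, 332 and 296 CPM with G9a hairpin 3, against 115, 116 and 134 CPM with the scrambled hairpin. It rose by 1.33 without overlap (edgeR adjusted p = 4.35e-15). LYZ, lysozyme, averaged 914 ± 30.5 CPM with the G9a hairpins and 474 ± 18.1 CPM with the scrambled hairpin (SD, n = 6 and 3) and rose by 0.95, CSF3R, the receptor for granulocyte colony-stimulating factor, rose by 0.83, and CD68, a lysosomal marker of macrophages, by 0.99. CSF1R, the receptor for macrophage colony-stimulating factor, rose by 0.75, ITGAM by 0.59 and S100A8, a calcium-binding protein of myeloid cells, by 0.96. CD14, a defining monocyte marker, did not pass and was at most 0.293 CPM in the 9 libraries. The falls were TREM1 (-1.36), GPNMB (-1.01), CD36 (-0.96), MMP9 (-1.76), FPR2 (-0.44) and C5AR1 (-0.61). MMP9, a matrix metalloproteinase, measured 1.35, 1.36 and 1.54 CPM with G9a hairpin 2 and 1.10, 1.66 and 1.04 CPM with G9a hairpin 3, against 4.80, 4.37 and 4.42 CPM with the scrambled hairpin. Its groups did not overlap. Against DMSO 12 of the 34 markers were higher and 13 lower, with a median of -0.22, and 11 were higher with the G9a hairpins than in both controls.

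Genes of primary granules, which are made early in myeloid maturation, were among those that rose. ELANE, neutrophil elastase, measured 896, 803 and 723 CPM with G9a hairpin 2 and 856, 853 and 805 CPM with G9a hairpin 3, against 482, 437 and 477 CPM with the scrambled hairpin. It rose by 0.82 (edgeR adjusted p = 3.89e-12), CTSG, cathepsin G, by 0.32, PRTN3 by 0.38 (lost with hairpin 2 alone without its replicate 1, adjusted p = 0.0628) and AZU1 by 0.39. In the whole list of 24 granule and progenitor genes 6 rose (25.0%) and 8 fell (33.3%), beside 19.1% and 19.4% of all genes. The falls were MYC (-0.43), HOXA10 (-0.35), NPM1 (-0.33), CEBPE (-0.35), MEIS1 (-0.23), SOX4 (-0.34), GFI1 (-0.16) and CD38 (-0.34). MYC, HOXA10, MEIS1 and SOX4 are known from growing progenitors, whereas CEBPE drives late granulocyte maturation. In the HOXA cluster of 11 genes HOXA3 rose by 0.47 and HOXA11 (-0.45) and HOXA10 fell. HOXA11 and HOXA10 were also lower than in DMSO, while HOXA3 did not pass as higher than in DMSO. The U937 identity list, which overlaps the monocyte and granule lists, had 5 rises (50%) and 0 falls among 10 genes.

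Of 14 markers of other lineages tested, 2 rose and 3 fell, in numbers too small to set against the 19.1% and 19.4% of all genes. The 5 lymphoid markers tested included 2 that fell, CD79A and PAX5 (-0.26), at a summed level of 171 to 190.2 CPM in G9a libraries and 204 to 219.9 CPM in scrambled libraries. Of 4 erythroid and megakaryocyte markers EPOR fell by 0.28, a call lost with hairpin 3 alone without G9a hairpin 3 replicate 2 (edgeR adjusted p = 0.0701), G9a hairpin 3 replicate 3 (0.143) or scrambled replicate 3 (0.0776). Of 5 epithelial and fibroblast markers VIM, which myeloid cells also express, rose by 0.47 and KRT8 rose to 0.406 against 0.0298 CPM with the G9a and the scrambled hairpins. In all 9 libraries 4 lymphoid, 8 erythroid and megakaryocyte, and 9 epithelial and fibroblast markers had 0 counts.

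Lysosome and autophagy genes rose more often than they fell, 18 (50%) against 4 (11.1%) of 36, with a median of 0.21. Of all genes 19.1% rose and 19.4% fell. The falls of the list numbered 2 without G9a hairpin 2 replicate 1 or scrambled replicate 1. CTSD, a lysosomal protease, measured 1058, 941 and 994 CPM with G9a hairpin 2 and 1048, 1105 and 1062 CPM with G9a hairpin 3, against 577, 578 and 659 CPM with the scrambled hairpin. It rose by 0.77 without overlap (edgeR adjusted p = 3.39e-10). OPTN, an autophagy receptor, rose by 0.72, NPC2, a cholesterol carrier of the lysosome, by 0.54, and the hydrolase HEXA by 0.39. TFE3, a transcription factor for lysosomal genes, rose by 0.40. CTSD averaged 1117 ± 145 CPM in DMSO (SD, n = 3), and for the list 9 genes were higher and 5 lower than in DMSO, with a median of 0.02.

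**Figure D4:**
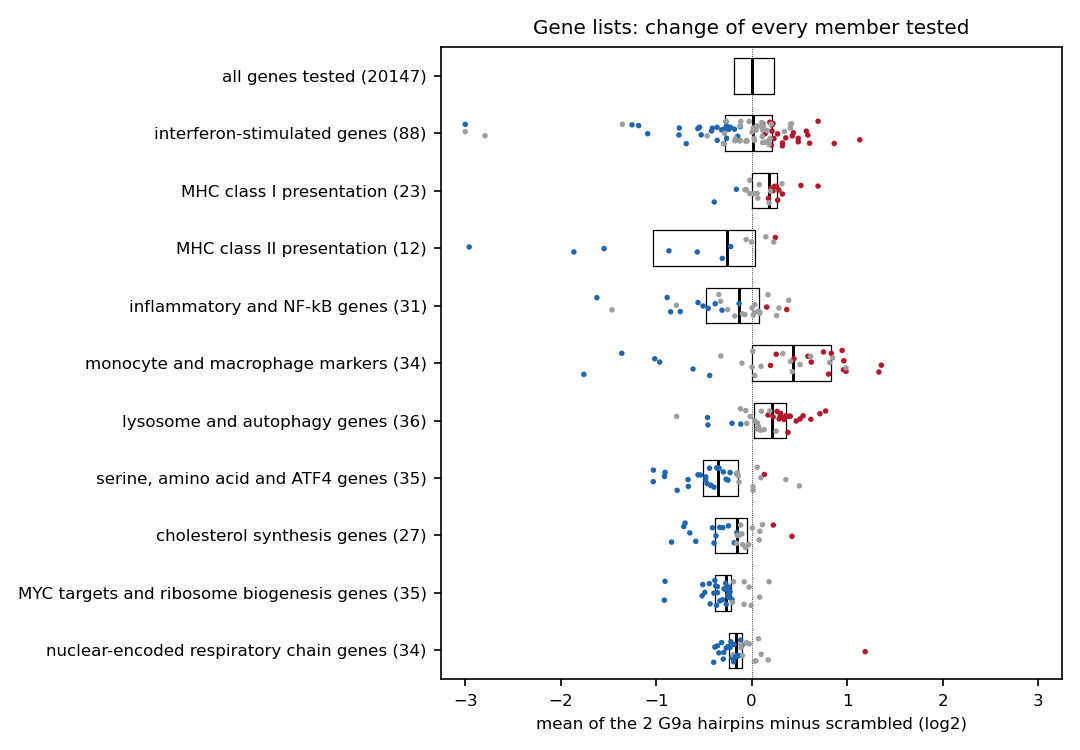
Log2 change of the mean of the G9a hairpins against the scrambled hairpin for the tested members of 10 gene lists and for all genes tested, with values limited to 3 in either direction; boxes give quartiles and medians, and points are members, red for a rise and blue for a fall by the rule of both hairpins and grey for neither. The amino acid and MYC lists lie below zero (medians of -0.35 and -0.27) and the monocyte list above it (0.43).

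Genes of serine synthesis, amino acid transport and the ATF4 response mostly fell. Of 35 tested 25 fell (71.4%) and 1 rose (2.86%), beside 19.4% and 19.1% of all genes, with a median of -0.35. ATF4, the transcription factor of the integrated stress response, measured 241, 237 and 242 CPM with G9a hairpin 2 and 234, 247 and 263 CPM with G9a hairpin 3, against 333, 329.5 and 332 CPM with the scrambled hairpin. It fell by 0.44 without overlap (edgeR adjusted p = 1.18e-11). PSAT1, which makes phosphoserine, measured 110.1, 114 and 107 CPM with G9a hairpin 2 and 102, 99.1 and 97.4 CPM with G9a hairpin 3, against 172, 171 and 156 CPM with the scrambled hairpin. It fell by 0.67 (edgeR adjusted p = 2.31e-13), also without overlap. TRIB3, a pseudokinase induced by ATF4, fell by 0.91, DDIT4, an inhibitor of mTORC1, by 1.03, GPT2, a mitochondrial alanine transaminase, by 0.78, and SLC7A11, the cystine transporter, by 0.91. SHMT1, the cytosolic serine hydroxymethyltransferase, was the rise, by 0.13, which hairpin 2 alone did not show with no filter on low counts (edgeR adjusted p = 0.0542). In this list 24 of the 25 falls were also lower than in DMSO, and the median against DMSO was -0.39. The median of the list was 0.07 with the SUV39H1 hairpins and close to zero at 4 µM UNC0638.

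The promoters of SLC3A2, a subunit of amino acid transporters, and ASNS, asparagine synthetase, are shown because both genes fell and both windows hold TGATGNAA, the letters of a composite ATF and C/EBP element, marked in capitals on either strand (RefSeq, GRCh38.p14).
SLC3A2 (chr11:62881449-62881748, plus strand): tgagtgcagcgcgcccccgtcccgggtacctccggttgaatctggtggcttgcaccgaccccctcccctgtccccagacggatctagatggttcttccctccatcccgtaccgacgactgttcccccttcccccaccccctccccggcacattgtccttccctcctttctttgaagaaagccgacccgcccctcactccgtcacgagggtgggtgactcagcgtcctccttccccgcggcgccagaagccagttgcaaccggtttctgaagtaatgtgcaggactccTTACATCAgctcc
ASNS (chr7:97872359-97872658, minus strand): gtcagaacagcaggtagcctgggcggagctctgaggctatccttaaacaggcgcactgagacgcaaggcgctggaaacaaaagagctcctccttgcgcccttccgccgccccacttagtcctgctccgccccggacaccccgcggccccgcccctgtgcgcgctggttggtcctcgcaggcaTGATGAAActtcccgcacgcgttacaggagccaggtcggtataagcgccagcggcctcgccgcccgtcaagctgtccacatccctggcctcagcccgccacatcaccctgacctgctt

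The match begins 37 bases after the start in SLC3A2 and 68 bases before it in ASNS. SLC3A2 averaged 150.3 ± 5.19 CPM with the G9a hairpins and 209.6 ± 5.79 CPM with the scrambled hairpin and fell by 0.48, and ASNS averaged 66.6 ± 5.002 CPM with the G9a hairpins and 85.7 ± 1.75 CPM with the scrambled hairpin and fell by 0.37 (SD, n = 6 and 3 for each). The letters were in 4 of the 25 matched promoters of the list (16%), in 2 of the 17 of its members that fell (11.8%), in 1.84% of the promoters matched to tested genes and in 3.67% of all promoters. Most genes of the list that fell had no match in this window.

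Sterol and fatty acid synthesis genes fell more often than they rose, 13 (48.1%) against 2 (7.41%) of 27, with a median of -0.16. Of all genes 19.4% fell and 19.1% rose. SCD, the stearoyl-CoA desaturase, measured 256, 247 and 262 CPM with G9a hairpin 2 and 253, 251 and 249 CPM with G9a hairpin 3, against 412, 413 and 418 CPM with the scrambled hairpin. It fell by 0.71 (edgeR adjusted p = 2.57e-16), with no overlap. INSIG1, which holds the sterol sensor in the endoplasmic reticulum, fell by 0.70, STARD4, a sterol carrier, by 0.84 and SREBF1, a master regulator of lipid synthesis, by 0.65. STARD4 may share reads with the overlapping STARD4-AS1. Against DMSO the list looked different: 12 genes were higher and 4 lower, with a median of 0.07, and 4 of the 13 falls were also lower than in DMSO. Among 15 genes of lipid storage and efflux 5 rose (33.3%) and 4 fell (26.7%), led by PLIN2, CPT1A (0.75) and CD36 (-0.96).

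Hypoxia and glycolysis genes fell in 13 of 30 cases (43.3%) and rose in 2 (6.67%), with a median of -0.10. Of all genes 19.4% fell and 19.1% rose. SLC2A3, a glucose transporter, measured 38.7, 37.1 and 37.8 CPM with G9a hairpin 2 and 39.8, 38.5 and 39.0 CPM with G9a hairpin 3, against 67.4, 69.0 and 68.3 CPM with the scrambled hairpin. It fell by 0.83 (edgeR adjusted p = 3.15e-18), without overlap. HK2, hexokinase 2, fell by 0.62, VEGFA by 0.48 and LDHA, lactate dehydrogenase A, by 0.45, while NDRG1 (0.52) and BNIP3L (0.32) rose. All 13 falls were also lower than in DMSO, and so were the 2 rises. Against DMSO 26 of the 30 genes were lower and 0 higher, with a median of -0.55. Among all genes 4846 (24.1%) were lower and 4533 (22.5%) higher. Among 23 oxidative stress genes 8 rose (34.8%) and 5 fell (21.7%). FTH1, the ferritin heavy chain, rose by 0.70, and FTL by 0.44, both with processed pseudogenes that make the counts uncertain. NQO1, an NRF2 target, rose by 0.23, but its fellow targets TXNRD1 and SRXN1 fell by 0.33 and 0.36.

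MYC and the genes of ribosome biogenesis fell in 27 of 35 cases (77.1%) and rose in 0, beside 19.4% and 19.1% of all genes. Their median was -0.27, and their summed level was 8023 to 8440 CPM in G9a libraries and 9749 to 9932 CPM in scrambled libraries. MYC, a transcription factor of growth, measured 214, 206 and 209 CPM with G9a hairpin 2 and 211, 214 and 202 CPM with G9a hairpin 3, against 284, 273 and 292 CPM with the scrambled hairpin. It fell by 0.43 without overlap (edgeR adjusted p = 1.42e-10). NIP7, a factor of large subunit assembly, averaged 52.2 ± 1.93 CPM with the G9a hairpins and 97.9 ± 0.551 CPM with the scrambled hairpin (SD, n = 6 and 3) and fell by 0.91. NOP16 fell by 0.49, WDR12 by 0.52 and NCL, which encodes nucleolin, by 0.36. The promoter of BYSL, a factor of small subunit assembly that fell by 0.51, is shown as an example of a window with CACGTG, the E-box that MYC can bind, in capitals 28 bases after the start (RefSeq, GRCh38.p14).
BYSL (chr6:41921249-41921548, plus strand): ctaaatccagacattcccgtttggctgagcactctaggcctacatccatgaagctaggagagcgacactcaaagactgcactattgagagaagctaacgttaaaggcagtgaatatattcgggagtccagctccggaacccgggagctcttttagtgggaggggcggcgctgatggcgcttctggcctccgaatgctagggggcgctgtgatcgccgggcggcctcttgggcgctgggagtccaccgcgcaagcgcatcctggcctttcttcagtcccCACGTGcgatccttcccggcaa

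CACGTG, which reads the same on both strands, was in 8 of 22 matched promoters of the genes of this list that fell (36.4%), in 10 of 29 of all of its genes (34.5%), in 10.1% of the 10313 promoters matched to tested genes, in 11.8% of those of all genes that fell and in 7.43% of all 27305 promoters. BYSL measured 114, 109 and 112 CPM with G9a hairpin 2 and 112, 114 and 112 CPM with G9a hairpin 3, against 157, 157 and 165 CPM with the scrambled hairpin. Those values did not overlap.

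The direction for this list depended on the control. Against DMSO 12 of the 35 genes were higher and 9 lower, with a median of 0.03, beside 22.5% and 24.1% of all genes. Of the 27 falls, 9 were also lower than in DMSO and 7 were higher than in DMSO. MYC stood at 216 ± 11.5 CPM and NIP7 at 65.7 ± 4.06 CPM in DMSO (SD, n = 3). With the G9a hairpins 34 of the 35 genes were higher than with the SUV39H1 hairpins and 0 lower, with a median difference of 0.58. Of all genes 32.9% were higher and 32.6% lower in that comparison. Against the inhibitor response 28 of the 35 were lower and 1 higher, beside 22.5% and 22.3% of all genes. Cytosolic ribosomal protein genes showed less: 11 of 64 fell (17.2%, beside 19.4% of all genes) and 1 rose, with a median of -0.08. The falls numbered 7 without G9a hairpin 3 replicate 1, 18 with RLE scaling, 19 with no filter on low counts and 20 with DESeq2, and against DMSO 14 of the 64 were higher and 10 lower. RPL21 fell by 0.68 but has many processed copies, and RPS15 fell by 0.46.

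Nuclear-encoded genes of the respiratory chain fell in 22 of 34 cases (64.7%) and rose in 1 (2.94%), with a median of -0.17. Of all genes 19.4% fell and 19.1% rose. ATP5A1, a subunit of ATP synthase, measured 623, 651 and 646 CPM with G9a hairpin 2 and 633, 634 and 615 CPM with G9a hairpin 3, against 831, 802 and 804 CPM with the scrambled hairpin. It fell by 0.36 (edgeR adjusted p = 1.45e-11) without overlap. UQCRC2 and UQCRFS1, of complex III, fell by 0.38 and 0.31. COX7C, of complex IV, was the rise, by 1.19. Of the 22 falls 13 were also lower than in DMSO. Genes of the unfolded protein response of the endoplasmic reticulum went up in 8 of 19 cases (42.1%) and down in 2 (10.5%). Without G9a hairpin 2 replicate 3, 5 went up. CRELD2 rose by 0.43 and PDIA4 by 0.19, and XBP1, a transcription factor of that response, fell by 0.55.

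Cell cycle genes moved both ways, 11 up (22.4%) and 14 down (28.6%) of 49, beside 19.1% and 19.4% of all genes, with a median of -0.05. CDK6, a kinase of early G1, measured 381, 375 and 377 CPM with G9a hairpin 2 and 385, 359.7 and 328 CPM with G9a hairpin 3, against 177, 181 and 167 CPM with the scrambled hairpin. It rose by 1.07 without overlap (edgeR adjusted p = 2.44e-15). BUB1B, of the spindle checkpoint, fell by 0.81, CCND2, cyclin D2, by 0.81 and MCM4, of the replicative helicase, by 0.45, while MKI67, a proliferation marker, rose by 0.34. Among 27 p53 targets and arrest genes 10 rose (37.0%) and 6 fell (22.2%), while against DMSO 9 were higher and 9 lower. CDKN1A, which encodes the CDK inhibitor p21, measured 24.4, 23.8 and 24.1 CPM with G9a hairpin 2 and 25.98, 27.4 and 27.6 CPM with G9a hairpin 3, against 11.5, 12.0 and 12.2 CPM with the scrambled hairpin. It rose by 1.10 (edgeR adjusted p = 1.55e-16). MDM2, another p53 target, fell by 0.29 and SESN1 by 0.77. U937 cells are known to lack functional p53.

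Apoptosis regulators also moved both ways, 7 up (22.6%) and 11 down (35.5%) of 31, beside 19.1% and 19.4% of all genes. BMF and BCL2L11, which promote cell death, rose by 0.94 and 0.55, and MCL1, which opposes it, fell by 0.58. MCL1 measured 188, 198 and 191 CPM with G9a hairpin 2 and 193, 187 and 182 CPM with G9a hairpin 3, against 287, 284 and 279.8 CPM with the scrambled hairpin. Its groups were apart. PMAIP1, also pro-apoptotic, fell by 0.61, and BCL2, which opposes death, rose by 0.43. Of 28 immediate early genes 6 rose (21.4%) and 7 fell (25.0%), shares close to the 19.1% and 19.4% of all genes. Against DMSO 6 were higher and 18 lower, with a median of -0.26. Of the 6 rises 3 were also higher than in DMSO and 2 were lower, and all 7 falls were also lower. FOSL2, a subunit of AP-1, rose by 1.16, KLF10 by 0.85 and KLF6 by 0.67, while EGR1, EGR3 (-1.77) and JUNB (-0.50) fell. FOS rose by 0.45.

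Germline and protocadherin genes, which are silent in most somatic cells, were mostly below the filter. Of 40 germline genes 11 were tested, of which 3 rose (27.3%) and 2 fell (18.2%), beside 19.1% and 19.4% of all genes. MOV10L1, of the germline small RNA pathway, rose by 1.39 and averaged 0.780 against 0.299 CPM, and PAGE1, a cancer-testis gene, fell by 0.97. Of 55 clustered protocadherin genes 4 were tested and PCDHGA6 rose, to 0.379 against 0.155 CPM with the G9a and the scrambled hairpins. That rise was lost with hairpin 2 alone under DESeq2 (adjusted p = 0.0748) and, in edgeR, without G9a hairpin 2 replicate 2 (adjusted p = 0.0603), G9a hairpin 2 replicate 3 (0.0695) or scrambled replicate 2 (0.141), and PCDHGA6 did not pass against DMSO (edgeR adjusted p = 0.0723). Of 18 imprinted genes tested 5 rose and 5 fell (27.8% each), among them L3MBTL1 (0.49), GRB10 (-0.41) and SNRPN (-0.36). Zinc finger genes with a ZNF symbol rose in 94 of 369 cases (25.5%) and fell in 40 (10.8%), with a median of 0.08. All genes rose in 19.1% and fell in 19.4% of cases, and those on chromosome 19, which carries some ZNF genes, in 23.1% and 13.7%. Long noncoding RNA genes with a LINC symbol rose in 28 of 142 (19.7%) and fell in 9 (6.34%), with a median of 0.13. Their falls numbered 5 without scrambled replicate 1. Against DMSO 32 of these LINC genes were higher and 30 lower, with a median of -0.05. Replication-dependent histone genes fell in 8 of 43 cases (18.6%, close to the 19.4% of all genes) and rose in 0. HIST1H2AC, which had the smallest p, averaged 1.21 ± 0.126 CPM with the G9a hairpins and 3.59 ± 0.135 CPM with the scrambled hairpin (SD, n = 6 and 3). Most such transcripts lack a poly(A) tail and many are near-identical, so their counts are uncertain.

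Calls also varied with level and base composition. Genes under 1 CPM rose in 7.56% and fell in 3.00% of 5041 cases, and those of 100 CPM or more rose in 24.8% and fell in 33.0% of 2490. Among 9232 genes of 10 CPM or more with a transcript in GENCODE v29 (91.3% of such genes), the quartile with the lowest GC content rose in 15.8% and fell in 36.2%, and the quartile with the highest rose in 30.4% and fell in 20.8%. The part of base composition in the results above was not tested. The shares of rises were highest on chromosomes 22 (25.4%) and 19 (23.1%).

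Repeats were counted by name over the whole genome, with 1928115 to 3337642 counts in the 9 libraries and 929 names tested. Their counts were 6.96% ± 0.07 of the gene counts with G9a hairpin 2, 6.79% ± 0.34 with G9a hairpin 3 and 5.76% ± 0.12 with the scrambled hairpin (SD, n = 3 each), with no overlap of G9a and scrambled libraries. DMSO libraries were at 5.94% ± 0.17 (SD, n = 3). Scaled to the gene counts, 677 names passed in the mean of the hairpins (72.9%), 639 higher and 38 lower, with a median of 0.28. With both hairpins 527 rose (56.7%) and 24 fell (2.58%). Scaled instead to the total of the repeat counts, with 928 names tested, the median was 0.02. Both hairpins then gave 101 rises and 150 falls, so the direction of most single names rests on the shift of the total. Counts of single classes on the repeat scale are to be read beside these. The deposited table does not separate repeats inside introns and transcripts of genes from repeats with their own transcription, and which of them shifted was not tested.

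**Figure D5:**
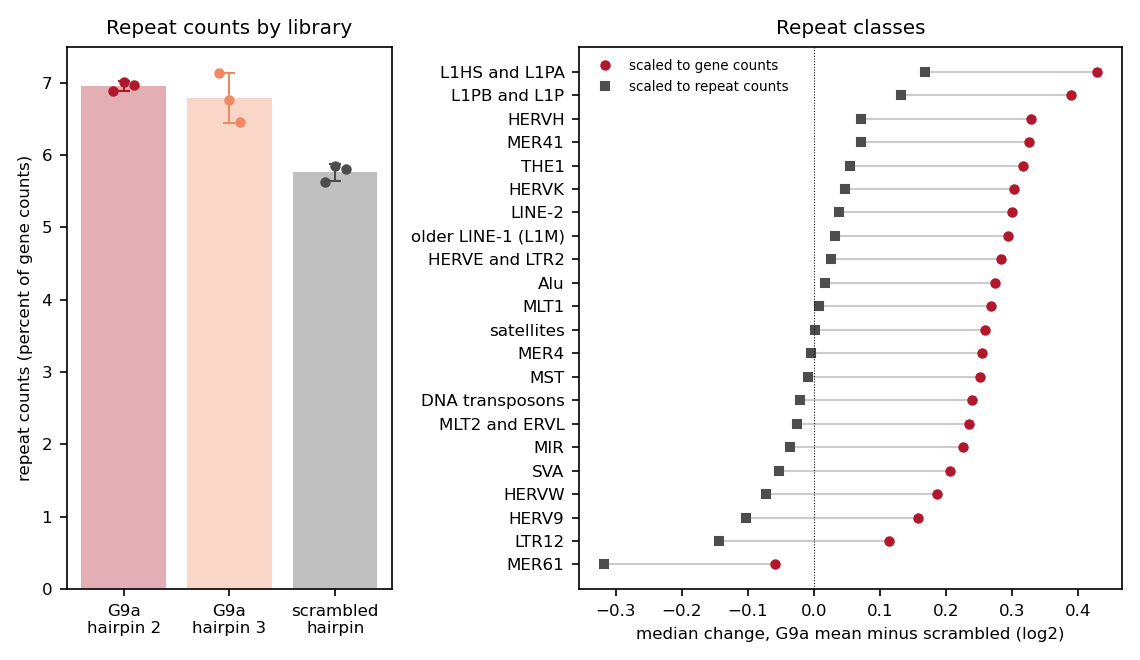
Left, repeat counts as a percent of gene counts with G9a hairpin 2, G9a hairpin 3 and the scrambled hairpin, as bars with SD and points for libraries. Right, the median log2 change of each repeat class scaled to gene counts (red circles) and to repeat counts (grey squares); the classes lie mostly near 0.2 to 0.4 on the first scale and near zero on the second.

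The LINE-1 lists were redrawn after their values were seen. Most names in the list of L1HS and L1PA, which are among the primate-specific elements, stayed higher on both scales. Of the 18 names in that list 16 rose (88.9%) and 0 fell, with a median of 0.43, beside 56.7% and 0.28 for all repeat names. On the repeat scale 12 rose and 1 fell, with a median of 0.17, beside 101 and 150 of all 928 names. L1PA10 measured 115, 112 and 113 CPM with G9a hairpin 2 and 116, 108 and 105 CPM with G9a hairpin 3, against 63.4, 73.8 and 69.4 CPM with the scrambled hairpin. It rose by 0.69 (edgeR adjusted p = 2.31e-08), with no overlap. The youngest members had negative differences that did not pass the test: L1HS, the family that still moves in humans, differed by -0.17 (edgeR adjusted p = 0.498) and L1PA2 by -0.10 (edgeR adjusted p = 0.631). L1HS measured 83.8, 68.6 and 45.1 CPM with G9a hairpin 2 and 64.5, 51.2 and 47.5 CPM with G9a hairpin 3, against 74.4, 73.7 and 53.8 CPM with the scrambled hairpin. The libraries overlapped widely. Of 18 L1PB and other L1P names 13 rose (72.2%) and 0 fell, with 6 and 1 on the repeat scale. Of 77 older L1M names 66 rose (85.7%) and 0 fell, with 17 and 6 on the repeat scale.

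Most names of Alu elements, DNA transposons, LINE-2 and MIR rose on the gene scale, but few rose on the repeat scale. Of all repeat names 56.7% rose on the gene scale, with a median of 0.28, so these classes largely shared the general shift. Of 36 Alu names 26 rose (72.2%) and 0 fell, with a median of 0.27, against 2 and 2 on the repeat scale with a median of 0.02. AluY, an abundant primate family, measured 1882, 1792 and 1734 CPM with G9a hairpin 2 and 1887, 1803 and 1618 CPM with G9a hairpin 3, against 1448, 1426 and 1429 CPM with the scrambled hairpin, a difference of 0.32 ± 0.04 (SE; edgeR adjusted p = 1.82e-07) without overlap. Of 116 DNA transposon names 73 rose (62.9%, near the share of all names) and 1 fell, against 8 and 24 on the repeat scale. All 928 names gave 101 rises and 150 falls on that scale. Of 20 satellite names 4 rose (20%, below that share) and 0 fell, against 2 and 2. All 4 LINE-2 names and all 4 MIR names rose, but on the repeat scale 0 of either rose and 2 MIR names fell.

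Endogenous retroviruses were mixed. The HERVH and HERVK lists were redrawn after their values were seen. HERVH-int, the internal part of HERVH, measured 47.0, 48.1 and 53 CPM with G9a hairpin 2 and 52.4, 51.1 and 48.0 CPM with G9a hairpin 3, against 35.1, 38.9 and 38.7 CPM with the scrambled hairpin. It rose by 0.41 (edgeR adjusted p = 3.17e-07), and so did 4 of the 5 HERVH names, but 0 rose or fell on the repeat scale. Of 17 HERVK names with LTR5 and LTR13, 12 rose (70.6%) and 2 fell, and on the repeat scale 5 rose and 3 fell. HERVK14-int rose by 0.93. HERVK11D-int rose by 1.46 from a level near the limit of detection, at 0.268 against 0.0979 CPM with the G9a and the scrambled hairpins. On the repeat scale HERVK11D-int was still higher, by 1.21. LTR13_ was the name that fell most, with 2.67, 2.98 and 2.24 CPM with G9a hairpin 2 and 2.17, 2.06 and 1.98 CPM with G9a hairpin 3, against 6.40, 6.30 and 7.39 CPM with the scrambled hairpin. The groups did not overlap, the log2 change was -1.52 ± 0.08 (SE; edgeR adjusted p = 1.03e-14), and it was -1.77 on the repeat scale. LTR12 had 1 rise and 0 falls among 7 names (14.3% rose, beside 56.7% of all repeat names), with a median of 0.11, but on the repeat scale 0 rises and 2 falls, with a median of -0.14. MER61 had 0 rises and 2 falls among 7, led by MER61C (-0.41), and 0 and 4 on the repeat scale. The fall of MER61C was lost with hairpin 2 alone under DESeq2 (adjusted p = 0.0515) and, in edgeR, without scrambled replicate 3 (0.0693).

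Some single names changed on either scale. SATR2, a satellite, measured 4.35, 4.89 and 5.16 CPM with G9a hairpin 2 and 5.27, 4.12 and 4.62 CPM with G9a hairpin 3, against 2.02, 2.23 and 2.53 CPM with the scrambled hairpin. It rose by 1.06 without overlap, and by 0.80 on the repeat scale. MER133B rose by 2.11 from a low level, at 0.357 against 0.0823 CPM with the G9a and the scrambled hairpins, and L1P4e by 1.14. THE1A-int, the internal part of a MaLR element, measured 119, 122 and 123 CPM with G9a hairpin 2 and 125, 120.3 and 119 CPM with G9a hairpin 3, against 161, 164 and 156 CPM with the scrambled hairpin. It fell by 0.40 (edgeR adjusted p = 4.69e-11), and by 0.66 on the repeat scale. Of 9 THE1 names 6 rose (66.7%, near the 56.7% of all repeat names) and 2 fell, with 1 and 2 on the repeat scale. MLT1E3-int fell by 0.98 and MER53, a DNA transposon, by 0.61. Between hairpin 3 and hairpin 2, 0 of 929 repeat names differed in the edgeR test, with 28 at an unadjusted p under 0.05. Against SUV39H1 hairpins, 94 names were higher with the G9a hairpins and 291 lower, and against the response to 4 µM UNC0638 553 were higher and 40 lower.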

How the data were processed

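RNA-seq of U937 cells was analysed from 2 tables of counts that the authors deposited, 1 for genes and 1 for repeats. Per the submitters' processing notes, STAR and featureCounts were used with hg19; for versions, settings and the treatment of reads with several map positions the sources used here give nothing (not stated). Per the labels, libraries were made with the TruSeq RNA kit v2, which does not mark strand. The members and lists were chosen with earlier results of these data known, and the HERVH, HERVK and LINE-1 lists were redrawn after their values were seen.

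All 24 libraries were fitted together with 1 mean per group (R 4.3.3, edgeR 4.0.16, limma 3.58.1), after filterByExpr (minimum count 10, minimum total 15) and TMM scaling, with the quasi-likelihood test. Depth was 34247076 to 52218785 gene counts in the 9 libraries compared. P-values were Benjamini-Hochberg adjusted over all 20147 genes or 929 repeats, with a threshold of 0.05. The contrasts were the mean of the 2 G9a hairpins against scrambled, each hairpin, hairpin 3 against 2, G9a against SUV39H1, and the G9a response against the 4 µM UNC0638 response. Repeats used the library sizes and TMM factors of the genes. Levels are TMM-scaled CPM, not divided by gene length. Standard errors are the log2 change divided by the root of its F statistic. The biological coefficient of variation was 4.63%. The fit was tested on simulated data.

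Named genes were the H3K9 methyltransferases, the 15 largest rises and falls (at least 2 CPM in the higher group, libraries separated, 1 place in the table, no clone-based symbol), the 4 smallest p of each list with both hairpins, the 5 higher and lower genes of the contrasts and 8 higher and lower repeats. Any further gene in the text was picked with its values in view, and 3 genes that the rule names are not reported here. Alternatives were RLE scaling, no filter, DESeq2 1.42.0, a replicate block, a 1.2-fold threshold, the compared libraries alone, each replicate left out, and repeat library sizes. Promoters came from RefSeq (GRCh38.p14), matched by symbol for 10313 of 20147 genes.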

Additional observations from a re-analysis of the deposited data

Results flagged for a closer look

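The G9a hairpins differed from each other in 2 genes by the edgeR quasi-likelihood test of hairpin 3 against hairpin 2. EGR1 was higher with hairpin 3 by 0.65 on the log2 scale: -2.25 with hairpin 2 and -1.60 with hairpin 3, both against the scrambled hairpin, so the gene fell with either. HSPA6, a stress-inducible member of the HSP70 family, differed by -0.49, with 6.03, 6.12 and 5.95 CPM with G9a hairpin 2 and 4.38, 4.82 and 3.74 CPM with G9a hairpin 3, against 5.13, 4.57 and 5.10 CPM with the scrambled hairpin. The log2 change against the scrambled hairpin was 0.30 with hairpin 2 and -0.19 with hairpin 3.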

How the results depend on the processing

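By the rule of both hairpins, and apart from the 1.2-fold threshold, 177 genes given as rises or falls kept their call in 2452 of 2477 alternative values and 8 of them (CIITA, EPOR, OAS2, PCDHGA6, PRTN3, SETDB1, SHMT1 and SOCS1) lost it in 25; 13 repeats kept it in 180 of 182, and AluY and HERVH-int lost it on the repeat scale; no direction turned. Of 820 values for the medians of 57 lists, 78 in 40 lists moved by more than the spread between G9a libraries. With a threshold of 1.2-fold, called genes fell to 3190 in the mean of the G9a hairpins, 2743 with hairpin 2, 2826 with hairpin 3, 2227 with both (1193 higher, 1034 lower), 0 between the hairpins, 6338 against SUV39H1 and 4132 against the 4 µM response, and repeats to 205 in the mean and 117 with both. On the repeat table's own library sizes, repeats called were 363 in the mean and 251 with both. Between the hairpins, 11 genes were called with no filter on low counts, 0 with the compared libraries alone and 0 to 2 with a replicate left out. EGR1 lost that call in 5 settings (adjusted p 0.0531 to 0.276) and HSPA6 in 6 (0.0531 to 0.297). SUV39H2 lost its call in the mean without scrambled replicate 2. With a replicate left out, counts ran from 8600 to 9990 genes in the mean, 7766 to 8969 with hairpin 2, 7741 to 8985 with hairpin 3, 6689 to 7483 with both, 12840 to 13343 against SUV39H1 and 8141 to 9100 against the 4 µM response; repeats from 613 to 689 and from 459 to 573; EHMT2 from -0.99 to -0.92. Replicate numbers did not pair the libraries (correlation of same-numbered deviations -0.07 to 0.07); the replicate block gave 10477 genes in the mean, 8171 with both, 2 between the hairpins, and EHMT2 -0.97. DESeq2 gave 9431 genes in the mean and 7292 with both. The median of the interferon-stimulated genes was -0.01 with RLE scaling and ran to -0.03 with a replicate left out; the medians of lipid storage and oxidative stress genes also changed sign, in 1 and 3 alternatives, to at most 0.02 from zero. With a replicate left out, small counts also changed: rises of inflammatory genes ran down to 1 (without G9a hairpin 2 replicate 1), of sterol genes to 1 (without G9a hairpin 2 replicate 1 or 3, or scrambled replicate 2) and of class II genes to 0 (without scrambled replicate 3), while rises of amino acid genes ran up to 2 (without scrambled replicate 1) and of MYC and ribosome biogenesis genes to 1 (without G9a hairpin 3 replicate 3 or scrambled replicate 3). Depth limits calls under 1 CPM.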

Other observations

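The nuclear long noncoding RNAs of paraspeckles and speckles were higher with the G9a hairpins. NEAT1, the scaffold of paraspeckles, measured 281, 296 and 311 CPM with G9a hairpin 2 and 301, 326 and 300.2 CPM with G9a hairpin 3, against 109, 119 and 133 CPM with the scrambled hairpin. It rose by 1.33 (edgeR adjusted p = 4.29e-15), and DMSO cells averaged 156 ± 6.93 CPM (SD, n = 3). MALAT1, of nuclear speckles, averaged 86.0 ± 13.3 CPM with the G9a hairpins and 35.7 ± 2.21 CPM with the scrambled hairpin (SD, n = 6 and 3) and rose by 1.26 (edgeR adjusted p = 8.43e-08), with 33.7 ± 6.72 CPM in DMSO. Both were picked after their values were seen.

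Some genes not described above differed from the other treatments. SIGLEC8, an inhibitory receptor of eosinophils and mast cells, averaged 6.72 ± 0.645 CPM with the G9a hairpins and 2.73 ± 0.199 CPM with the scrambled hairpin (SD, n = 6 and 3) and 1.21 ± 0.0574 CPM with SUV39H1 hairpin 2 and 2.97 ± 0.182 CPM with SUV39H1 hairpin 4 (SD, n = 3 each), a G9a minus SUV39H1 difference of 1.83 ± 0.07 (SE; edgeR adjusted p = 1.06e-17). CLEC5A, a myeloid lectin receptor, averaged 87.2 ± 3.68 CPM with the G9a hairpins and 86.6 ± 3.14 CPM with the scrambled hairpin (SD, n = 6 and 3) and 9.47 ± 0.237 CPM with SUV39H1 hairpin 2 and 25.4 ± 1.26 CPM with SUV39H1 hairpin 4 (SD, n = 3 each), a difference of 2.49 ± 0.04 (SE; edgeR adjusted p = 3.09e-27), and it did not pass against the scrambled hairpin (edgeR adjusted p = 0.877). ZNF117, which shares its locus with the retroviral envelope gene ERV3-1, rose by 1.36 with the G9a hairpins. Its G9a response minus its 4 µM UNC0638 response was 3.59 ± 0.16 (SE; edgeR adjusted p = 1.85e-15), from 8.17 ± 0.568 CPM with the G9a hairpins and 3.14 ± 0.527 CPM with the scrambled hairpin (SD, n = 6 and 3), 1.23 ± 0.306 CPM at 4 µM and 5.72 ± 0.365 CPM in DMSO (SD, n = 3 each). ERV3-1 followed it, with a rise of 0.96 and a difference between responses of 2.99 ± 0.15 (SE; edgeR adjusted p = 2.29e-14); the annotations overlap, so their reads cannot be told apart.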
